A study of Homo sapiens with 6 samples.

Results

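The genes described here are 9 interferon-induced genes and their regulators: the antiviral effectors IFITM1, IFITM2, IFITM3, BST2, ISG15 and IFI6, and the transcription factors STAT2, IRF9 and IRF1. They were taken by gene symbol from the 16315 genes of the table, with the difference between the groups already known, so their own differences are given as a description and carry no test. All 9 passed the filter on low values. F36P is a human leukaemia line with erythroid features that grows only with added cytokine. Its messenger RNA was sequenced in 3 libraries labelled HDAC7 knockout, transduced with a guide against the class IIa histone deacetylase HDAC7 (sgHDAC7), and in 3 control libraries transduced with a non-targeting guide (sgNT). Both groups carried a puromycin-resistance plasmid and were selected in 1 µg/ml puromycin for 4 days, and the question the study set was how HDAC7 bears on erythroid differentiation. The labels call the libraries biological replicates. How many guides were used, and whether the cells were a clone or a pool, the labels do not say, and no interferon treatment is named in the labels.

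Type I interferons bind a receptor whose JAK kinases phosphorylate STAT2. Together with IRF9 it is part of a complex that binds the interferon-stimulated response element, or ISRE, in the promoters of many target genes. Interferon gamma acts through another element, the gamma-activated sequence, or GAS, and IRF1 is a well-known early target of that route. Many target genes also have a basal level without added interferon, which is held up in part by STAT2 and IRF9, and IFITM proteins are abundant in many stem and progenitor cells.

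Of the effectors, 4 were lower with sgHDAC7, whereas for the other 2 effectors and the 3 transcription factors the libraries of both groups overlapped. IFITM1 stood at 51.8% of its sgNT level, IFITM3 at 68.0%, IFITM2 at 75.5% and BST2 at 77.2%. ISG15, at 104%, and IFI6, at 109%, are classic targets of the same STAT2 and IRF9 complex, and both groups overlapped for them. STAT2 at 90.8%, IRF9 at 88.2% and IRF1 at 105% overlapped as well. Levels are in CPM, read counts scaled to library size, after TMM scaling, a correction for library composition.

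The promoters of most of these genes match the sequences that interferon signalling reads. They are shown because effectors that were lower and effectors whose groups overlapped share the ISRE core. The GAS core was found only in some. Promoter sequence from RefSeq on GRCh38.p14, from 250 bases before to 50 after each start, was matched for 8 of the 9 members, all except IFITM2. It was searched on both strands for an ISRE core, which is GAAA, any 2 bases and GAAA again, and a GAS core, which is TTC, any 3 bases and GAA. Each window of 30 bases below runs 5′ to 3′ on the gene's strand, with the matched bases in capitals.
IFITM1, upstream ISRE, chr11:313990-314019, plus strand: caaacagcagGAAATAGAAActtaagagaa
IFITM1, GAS and start-site ISRE, chr11:314021-314050, plus strand: tacacacTTCTGAGAAACTGAAAcgacagg
IFITM3, 2 ISRE cores, chr11:320885-320914, minus strand: agGAAAAGGAAActgttgaGAAACCGAAAc
BST2, GAS and 2 ISRE cores, chr19:17405741-17405770, minus strand: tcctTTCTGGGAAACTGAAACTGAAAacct
ISG15, 2 ISRE cores, chr1:1013377-1013406, plus strand: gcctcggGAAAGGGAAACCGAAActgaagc
IFI6, 1 of 3 ISRE cores, chr1:27672266-27672295, minus strand: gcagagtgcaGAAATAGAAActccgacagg
IRF9, GAS, chr14:24161191-24161220, plus strand: gaccacgtgatTTCTGGGAAaaggccctcc
IRF1, GAS, chr5:132490879-132490908, minus strand: aacagcctgatTTCCCCGAAatgacggcac

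All 5 effectors with a promoter sequence held at least 2 ISRE cores, and none of the 3 transcription factors held one. IFITM1, IFITM3, BST2 and ISG15 had 2 each and IFI6 had 3. Matches that share bases were counted apart: the 2 of ISG15, at -113 to -104 and -107 to -98, overlap, as do the 2 of BST2. The second ISRE of IFITM1, at -6 to 4 relative to the start, shares bases with its GAS at -12 to -4. BST2 has the same arrangement, with a GAS at -136 to -128 running into ISRE cores at -130 to -121 and -124 to -115, and it has a further GAS at -58 to -50. IFITM3, ISG15 and IFI6 held no GAS core, IRF9 and IRF1 held 1 each, and the STAT2 promoter held neither core. Among 35116 promoters of this length, 3.57% held an ISRE core and 7.66% a GAS core. These are letter matches and not measured sites of binding. IFITM1, IFITM3 and BST2, which were lower, and ISG15 and IFI6, whose groups overlapped, thus all have the ISRE core in this window. The difference of ISG15 is known only coarsely, at 0.06 ± 0.19 (SE) on the log2 scale. Whether either core bears on the differences was not tested.

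Library totals ran from 10039693 to 12521195 counts, so that 3 counts correspond to 0.24 to 0.299 CPM. HDAC7 itself had 193.9, 238 and 246 CPM with sgHDAC7 and 449, 460 and 461 CPM with sgNT, a level of 49.5% of control (log2 fold change -1.02 ± 0.09 SE, edgeR adjusted p = 0.00139, n = 3 and 3). Replicate 1 of both groups stood apart from the other libraries on the second principal component, which held 32.1% of the variance. Of 13841 genes tested, 1.7% were called lower and 1.16% higher at an adjusted p under 0.05, and 12.2% were lower and 13% higher with no overlap between the groups. Erythroid markers were abundant in both groups, with a summed level of 14456 to 19428 CPM with sgHDAC7 and 10344 to 14711 CPM with sgNT. Most of this was the fetal globin HBG2, with 11006 ± 1963 and 7904 ± 1962 CPM (SD). Of the 8 markers 0 were called by edgeR with group alone, where 2.86% of all genes were. At an unadjusted p under 0.05 there were 2, where 19.2% of all genes were, and DESeq2 and limma called 0. With a term for replicate 1, edgeR called 3 of the 8 higher, where 5.78% of all genes were, and 0 lower. These were HBG2 (adjusted p = 0.000993), the erythropoietin receptor EPOR (0.023) and the transferrin receptor TFRC (0.0229).

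IFITM1 is a cell-surface protein that restricts the entry of enveloped viruses. Its gene lies at chr11:313506-315272 on the plus strand (GENCODE 29, GRCh38), beside IFITM2 and IFITM3. IFITM1 had 50.01, 41.9 and 50.4 CPM in sgHDAC7 libraries 1, 2 and 3, and 97.0, 90.6 and 87.0 CPM in sgNT libraries 1, 2 and 3. The highest sgHDAC7 library was well below the lowest sgNT library, and the libraries of each group lay close together. The means were 47.4 ± 4.81 and 91.5 ± 5.07 CPM (SD, n = 3 each), a difference of -0.95 ± 0.09 (SE) on the log2 scale or 1.93-fold. Among the 9 genes this was the largest difference, and it was close in size to that of HDAC7.

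IFITM3 is the endosomal member of the family, best known for limiting influenza virus, and maps to chr11:319669-327537 on the minus strand. It had 130, 111 and 109.8 CPM with sgHDAC7 and 208, 159.7 and 149 CPM with sgNT. The groups did not overlap, and replicate 1 was the highest library in each. The means were 117 ± 11.2 and 172 ± 31.2 CPM, a log2 difference of -0.56 ± 0.12 or 1.47-fold. IFITM2, a close relative of IFITM3 that also acts in endosomes, is annotated at chr11:307631-315272 on the plus strand. It had 84.5, 74.1 and 72.8 CPM with sgHDAC7 and 118, 98.7 and 89.4 CPM with sgNT. Here too replicate 1 was highest in each group and the groups were separate, but by a narrow gap. The means were 77.1 ± 6.40 and 102 ± 14.8 CPM, a log2 difference of -0.40 ± 0.11 or 1.32-fold.

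BST2, or tetherin, holds budding virus particles at the cell surface. It maps to chr19:17402939-17405648 on the minus strand, away from the IFITM cluster. BST2 had 199, 181 and 194.2 CPM with sgHDAC7 and 229.8, 253 and 261 CPM with sgNT. All 3 sgHDAC7 libraries were lower than all 3 sgNT libraries, and replicate 1 of sgNT was the nearest to the sgHDAC7 group. The means were 191 ± 9.42 and 248 ± 16.1 CPM, a log2 difference of -0.37 ± 0.07 or 1.30-fold. In bulk RNA, fewer cells with a transcript and less of it per cell cannot be told apart, for BST2 and the IFITM genes alike.

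**Figure D1:**
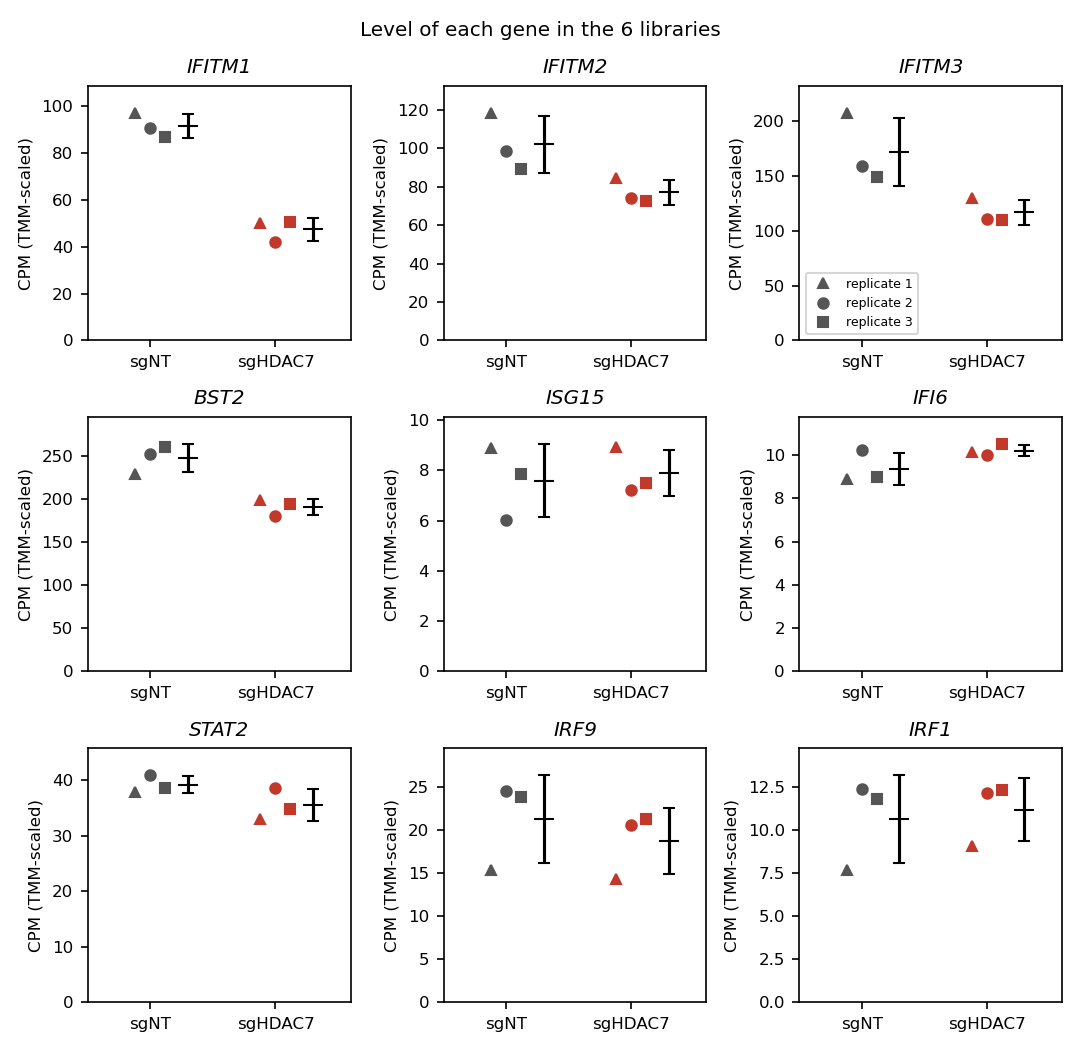
Level of each of the 9 genes in TMM-scaled CPM (vertical axis) in the 3 sgHDAC7 and 3 sgNT libraries; points are libraries, shaped by replicate number, and the horizontal marks with error bars are group means with SD (n = 3). The groups are separate for IFITM1, IFITM2, IFITM3 and BST2 and overlap for the other 5 genes.

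ISG15 encodes a ubiquitin-like protein that is joined to other proteins after interferon, and it maps to chr1:1001138-1014540 on the plus strand. It had 8.92, 7.24 and 7.52 CPM with sgHDAC7 and 8.88, 6.01 and 7.87 CPM with sgNT. The groups lay over each other, with the lowest and nearly the highest library both in sgNT. The means were 7.89 ± 0.90 and 7.59 ± 1.45 CPM, a log2 difference of 0.06 ± 0.19. ISG15 is thinly covered, with 67 to 111 counts per library, and counting error alone is 9.49% to 12.2% of its level, so its difference is known only coarsely at this depth.

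IFI6 encodes a membrane protein of the endoplasmic reticulum and mitochondria that blocks flavivirus replication, and maps to chr1:27666061-27672218 on the minus strand. It had 10.1, 9.999 and 10.5 CPM with sgHDAC7 and 8.88, 10.2 and 9.01 CPM with sgNT. The sgHDAC7 libraries were close together and sgNT replicate 2 fell among them. The means were 10.2 ± 0.26 and 9.37 ± 0.74 CPM, a log2 difference of 0.12 ± 0.14, with a counting error of 8.77% to 10.5% per library.

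STAT2 is the STAT that carries the activation domain of the type I complex, and maps to chr12:56341597-56360155 on the minus strand. It had 33.0, 38.6 and 34.8 CPM with sgHDAC7 and 37.9, 40.8 and 38.6 CPM with sgNT. Replicate 2 was the highest of each group, and that of sgHDAC7 lay within the sgNT range. The means were 35.5 ± 2.84 and 39.1 ± 1.53 CPM, a log2 difference of -0.14 ± 0.09.

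IRF9 is the DNA-binding partner of STAT2, and maps to chr14:24161053-24166565 on the plus strand. It had 14.3, 20.6 and 21.3 CPM with sgHDAC7 and 15.4, 24.6 and 23.8 CPM with sgNT. Replicate 1 was the lowest library of both groups by a wide gap, and within replicates 2 and 3 the sgHDAC7 values were the lower. The means were 18.7 ± 3.86 and 21.3 ± 5.10 CPM, a log2 difference of -0.18 ± 0.21. The IRF9 model shares exon sequence with the same-strand gene AL136295.5 (39.1% of its 100-base stretches), so its count is uncertain where reads fall in both.

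IRF1 is the transcription factor that drives many genes of the interferon gamma response, and maps to chr5:132481609-132490798 on the minus strand. It had 9.09, 12.2 and 12.3 CPM with sgHDAC7 and 7.70, 12.4 and 11.8 CPM with sgNT. As for IRF9, replicate 1 was the low library in each group. The means were 11.2 ± 1.81 and 10.6 ± 2.55 CPM, a log2 difference of 0.07 ± 0.21.

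By the edgeR fit over all genes, 3 of the 9 (IFITM1, IFITM3 and BST2) were called lower, against 1.7% of all genes tested, and 0 were called higher, against 1.16%. Groups did not overlap for 4, all of them lower, against 12.2% of all genes. Since the 9 were chosen on this contrast, nothing is read from these shares, nor from any call of a member given here or below. Such calls only describe how the fit moved. The calls for IFITM3 and BST2 depended on single libraries. IFITM1 was the one member still called when replicate 2 or replicate 3 of either group was left out, where 0.202% to 0.361% of all genes were called in either direction. Without replicate 1 of sgHDAC7 the calls were IFITM1 and BST2 (1.68% of all genes), and without replicate 1 of sgNT they were all 3 IFITM genes and BST2 (11.5%).

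**Figure D2:**
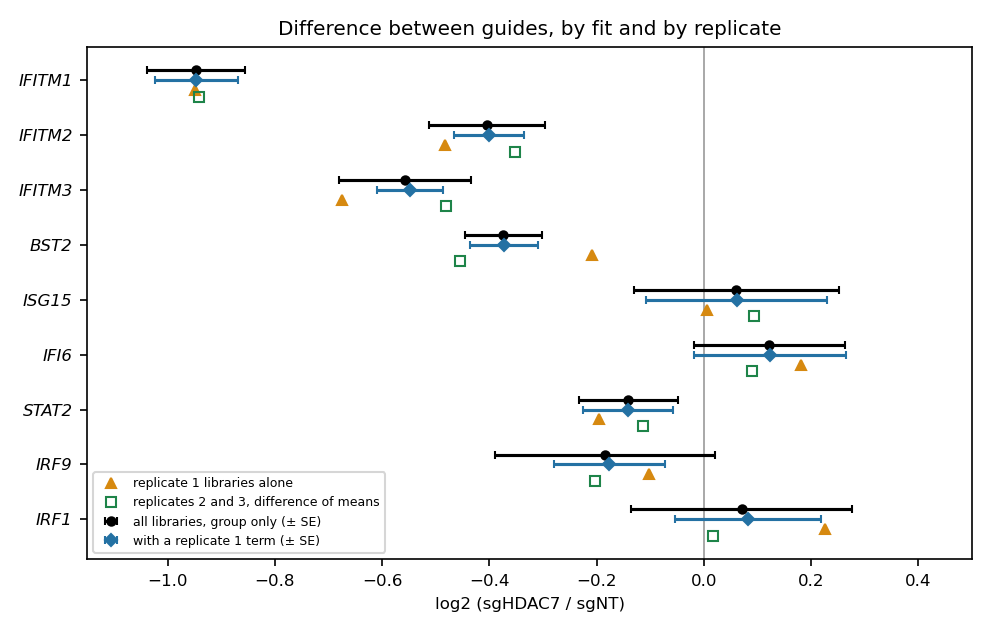
Log2 fold change of sgHDAC7 over sgNT (horizontal axis) for the 9 genes from the edgeR fit with group alone, with standard errors, beside the values with a term for replicate 1; triangles are the replicate 1 libraries alone and open squares the difference of the means of replicates 2 and 3. The 2 fits give nearly the same differences, from -0.95 for IFITM1 to 0.12 for IFI6, and the errors are smaller with the term for IFITM3, IRF9 and IRF1.

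Replicate 1 differed from the other replicates for several of these genes, and the direction was not the same for every gene. Its log2 level relative to replicates 2 and 3 was higher for IFITM3 by 0.23 with sgHDAC7 and 0.43 with sgNT, and for IFITM2 by 0.20 and 0.33. It was also higher for ISG15 by 0.26 and 0.35. The 2 IRF genes went the other way, with -0.54 and -0.64 for IRF9 and -0.41 and -0.62 for IRF1. For IFITM1 the values were 0.12 and 0.13. BST2 did not share a direction between the groups, with 0.09 with sgHDAC7 and -0.16 with sgNT. The labels do not say what sets replicate 1 apart, and its part in the levels was not tested.

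Within replicate numbers the sizes of the differences moved. For the 4 lower genes the direction was fixed in advance, since every sgHDAC7 library was below every sgNT library, and nothing is read from it. IFITM1 differed by -0.95 in replicate 1 and by -0.94 in the mean of replicates 2 and 3 on the log2 scale. IFITM3 differed by -0.67 and -0.48, and IFITM2 by -0.48 and -0.35, so both were further apart in replicate 1. BST2 had the reverse order, with -0.21 in replicate 1 and -0.45 in replicates 2 and 3. IRF1 differed by 0.23 in replicate 1 and by 0.02 in the others. With a term for replicate 1 in the fit, the log2 differences were -0.95 ± 0.08 for IFITM1, -0.40 ± 0.07 for IFITM2, -0.55 ± 0.06 for IFITM3 and -0.37 ± 0.06 for BST2 (SE). Under that fit all 4 were called lower, where 6.81% of all genes were, and nothing is read from these calls either.

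The 9 genes span a wide range of levels, and BST2 and the IFITM genes make up the upper end. Divided by the length of all annotated exons, the sgNT levels in CPM per kb were 222 for BST2, 128 for IFITM3, 84.7 for IFITM1 and 66.2 for IFITM2. They were 10.8 for IFI6, 8.07 for ISG15, 6.40 for STAT2, 5.60 for IRF9 and 1.36 for IRF1. In that order the neighbours ISG15 and STAT2, and STAT2 and IRF9, overlapped in their libraries. With sgHDAC7 the levels per kb were 171 for BST2, 86.7 for IFITM3, 49.999 for IFITM2 and 43.9 for IFITM1, so IFITM1 and IFITM2 had changed places. The remaining genes kept their order, and STAT2 and IRF9 alone overlapped as neighbours. The 4 genes that were lower with sgHDAC7 are thus the 4 with the highest level per length in both groups.

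The 3 IFITM genes lie side by side and resemble each other, so their joint count and its division were examined apart. Their summed level was 264, 227 and 233 CPM with sgHDAC7 and 423, 349 and 325 CPM with sgNT. The groups were separate, which follows from the separation of each of the 3 genes. The sgHDAC7 mean, 241 ± 20.0 CPM, was 66.04% of the sgNT mean, 366 ± 50.9 CPM. IFITM1 gave 18.9%, 18.5% and 21.6% of the joint counts with sgHDAC7 and 22.9%, 25.9% and 26.8% with sgNT. Its mean share was thus 19.7% ± 1.72 against 25.2% ± 2.01, lower in all 3 sgHDAC7 libraries. The exact (Clopper-Pearson) 95% intervals of the nearest pair overlapped: 20.1% to 23.2% in sgHDAC7 replicate 3 and 21.7% to 24.2% in sgNT replicate 1, for counting error alone. IFITM2 gave the larger share with sgHDAC7, 32.0% ± 0.70 against 27.9% ± 0.41, and IFITM3 gave 48.4% ± 1.09 against 46.9% ± 1.91.

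How reads were divided between the IFITM genes is uncertain. The annotated IFITM2 model runs over exons of IFITM1, and 25.5% of the 100-base stretches of IFITM1 exons occur also in IFITM2 and 4.05% in IFITM3. For IFITM3, 3.13% of such stretches occur in another gene. BST2, ISG15 and IFI6 share none. The shares depend on how the authors' counting divided such reads, and the summed IFITM level on whether it kept them.

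Genes next to the lower members were examined for a common difference over the region. Within 250 kb of the IFITM1 start, 0 of 15 other tested genes were called by edgeR, where 2.86% of all genes were. At an unadjusted p under 0.05 there were 6, where 19.2% of all genes were, and DESeq2 (5.19% of all genes called) and limma (2.6%) called 0. The neighbours' median log2 difference was 0.13, with 2 lower and 3 higher genes without overlap. PGGHG, which breaks down a collagen-linked sugar, is the nearest tested gene on one side, 24.4 kb from the IFITM1 start, and had 30.6 ± 1.02 CPM with sgHDAC7 and 28.4 ± 1.85 with sgNT. B4GALNT4, a glycosyltransferase gene and the nearest tested gene on the other side, had 2.25 ± 0.84 and 4.92 ± 1.98 CPM, a log2 difference of -1.12 ± 0.36 (SE) with an edgeR adjusted p of 0.131. With the replicate 1 term its adjusted p was 0.0137. Under that term B4GALNT4 was the 1 neighbour called lower and 2 were called higher, where 6.81% and 5.78% of all genes were.

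Around BST2, 0 of 17 neighbours were called by edgeR, against 2.86% of all genes. At an unadjusted p under 0.05 there were 7, where 19.2% of all genes were, DESeq2 called 2 and limma 0. The median log2 difference was 0.01, with 3 genes lower and 6 higher without overlap. The 3 lower genes without overlap were MVB12A, BISPR and PLVAP, the nearest tested genes on either side. With the replicate 1 term edgeR called 2 neighbours lower, MVB12A and PLVAP, where 6.81% of all genes were. It called 1 higher, where 5.78% were: ANKLE1, 124 kb away (log2 0.37, adjusted p = 0.00103). CCDC194, which lies between BST2 and PLVAP, was below the filter on low values. MVB12A, a subunit of the ESCRT-I sorting complex that starts within 0.1 kb of BST2 on the opposite strand, had 25.9 ± 1.43 CPM with sgHDAC7 and 32.3 ± 0.86 with sgNT (log2 -0.32 ± 0.10 SE, adjusted p 0.103 by edgeR, or 0.0364 once replicate 1 had its own term). The long noncoding RNA BISPR, also divergent from BST2, had 2.91 ± 0.14 and 4.35 ± 0.84 CPM (log2 -0.58 ± 0.24 SE, adjusted p = 0.218). PLVAP, 28.3 kb away, had 126 ± 8.83 and 158 ± 10.3 CPM (log2 -0.33 ± 0.08 SE, adjusted p = 0.0543, and 0.00247 with the term). Whether the counting used strand is not stated, so reads of BST2 and these divergent genes, and reads of BISPR and MVB12A, which overlap on the same strand, may not be fully separated.

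**Figure D3:**
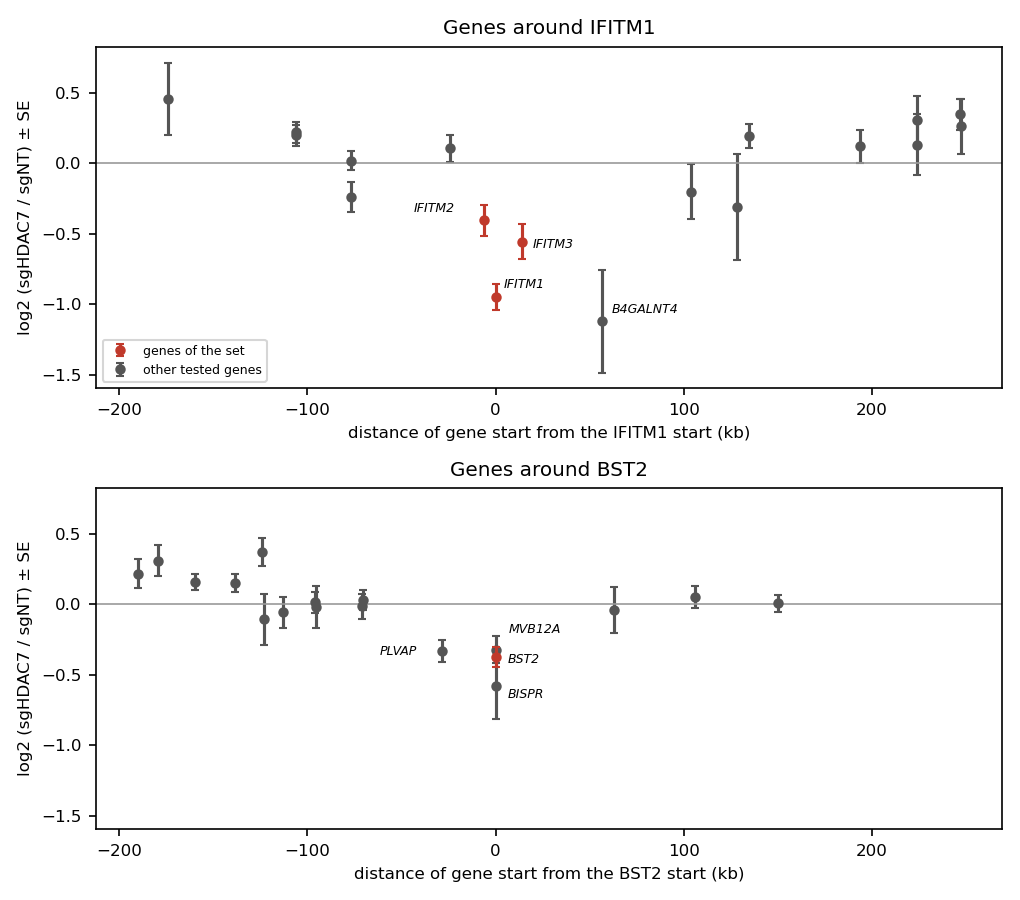
Log2 fold change of sgHDAC7 over sgNT (vertical axis) for tested genes by the distance of their start from the start of IFITM1 or BST2 in kb (horizontal axis), with standard errors; the members are marked. Of the neighbours, 0 of 15 and 0 of 17 were called, and the tested genes nearest BST2 (MVB12A, BISPR and PLVAP) lie below 0 beside it.

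The other genes of the pathway were taken from lists of receptors, transcription factors, inhibitors, ISG15 enzymes, sensors, effectors, antigen presentation and interferon gamma targets. Of 136 genes found in the table, 128 were tested. edgeR called 1 higher and 2 lower, against 1.16% and 1.7% of all genes, and 27 had an unadjusted p under 0.05, where 19.2% of all genes did. DESeq2 called 5 and limma 2. The median log2 difference was -0.00, the same as over all genes, with 64 genes below 0. With the replicate 1 term 11 were higher and 5 lower, where 5.78% and 6.81% of all genes were. By list, the term called 5 effectors, 3 inhibitors, 1 ISG15 enzyme, 1 sensor and 1 transcription factor higher. It called 2 gamma targets, 1 effector, 1 sensor and 1 antigen presentation gene lower. With replicates 2 and 3 alone 17 were higher and 14 lower, where 9.79% and 10.9% were. Of 12 interferon genes looked up by symbol, 0 entered the tests, and they are not analysed here.

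Of the receptors and kinases, 0 of 8 were called by edgeR (1 at an unadjusted p under 0.05, 0 by DESeq2 and limma), and 3 were lower without overlap between the groups, where 12.2% of all genes were. These 3 were JAK1 and both chains of the gamma receptor. IFNGR1 had 30.3 ± 2.62 CPM with sgHDAC7 and 36.1 ± 4.62 with sgNT (log2 -0.25 ± 0.12 SE, edgeR adjusted p = 0.283), and IFNGR2 had 24.7 ± 1.63 and 29.2 ± 2.37 (log2 -0.24 ± 0.11 SE, adjusted p = 0.258). TYK2, the kinase bound to the type I receptor, had 217 ± 4.14 CPM with sgHDAC7 and 213 ± 3.18 with sgNT. JAK1, its partner kinase, had 167 ± 4.77 and 181 ± 1.62, and JAK2, the kinase of the gamma and cytokine receptors, had 169 ± 2.83 and 195 ± 30.9. Of the STAT and IRF genes outside the members, 0 of 8 were called (1 at an unadjusted p under 0.05, 0 by both other tools). STAT3 had 210 ± 7.31 and 230 ± 8.43 CPM. IRF3, which switches on interferon genes after virus sensing, had 81.5 ± 1.87 and 71.8 ± 3.70.

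Among the inhibitors 1 of 12 was called, TRIM24, a chromatin reader that restrains retinoic acid and interferon signalling. TRIM24 rose from 115 ± 4.03 to 141 ± 6.75 CPM, by 0.30 ± 0.07 (SE) on the log2 scale with an edgeR adjusted p of 0.0493. The call is at the threshold and was lost in 9 of 16 alternative settings, with adjusted p from 0.000798 to 0.18. The phosphatase PTPN11 had 298 ± 6.16 and 310 ± 13.99 CPM. Of the genes for joining and removing ISG15, 0 of 7 were called by edgeR (2 at an unadjusted p under 0.05, 0 by DESeq2 and limma). TRIM25, a ligase for ISG15, had 136 ± 10.9 and 121 ± 14.7 CPM, and UBE2L6, the conjugating enzyme, had 96.9 ± 6.20 and 109 ± 3.04. The largest difference of this list was that of HERC5, a gene of low level, with 2.50 ± 0.83 and 0.91 ± 0.10 CPM and no overlap. Its log2 difference was 1.45 ± 0.37 (SE, edgeR adjusted p = 0.0682, or 0.017 with a term for replicate 1). Of the 7 genes, 3 had a log2 difference below 0.

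Of the other antiviral effectors, 0 of 55 were called by edgeR, 12 had an unadjusted p under 0.05, DESeq2 called 1 and limma 0, and the median log2 difference was 0.05. LY6E, an interferon-induced surface protein and the most abundant gene of this list, had 504 ± 40.1 CPM with sgHDAC7 and 505 ± 13.5 with sgNT. ADAR, the RNA-editing enzyme, had 208 ± 13.4 and 201 ± 11.2, and ZC3HAV1, which degrades viral RNA, had 152 ± 3.77 and 124 ± 20.0. The log2 difference of ZC3HAV1 was 0.29 ± 0.10 (SE, edgeR adjusted p = 0.17, or 0.0316 with a term for replicate 1). IFITM10, a family member on another part of the chromosome, had 4.32 ± 1.27 and 4.25 ± 0.78. Of the sensors 0 of 12 were called (2 at an unadjusted p under 0.05, 0 by DESeq2 and limma), with MAVS, the adaptor of RNA sensing, at 142 ± 8.97 and 125 ± 17.2.

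In class I antigen presentation 0 of 17 genes were called by edgeR, 3 had an unadjusted p under 0.05, DESeq2 called 1 and limma 0. B2M, the light chain of class I molecules, came nearest, with 380 ± 15.9 CPM with sgHDAC7 and 448 ± 9.81 with sgNT, a log2 difference of -0.24 ± 0.06 (SE, edgeR adjusted p = 0.0692, or 0.0124 with a term for replicate 1). All 3 of its sgHDAC7 libraries were below all 3 of sgNT.

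Of 9 genes known best from the gamma response, 2 were called lower. ICAM1, an adhesion molecule, fell from 68.5 ± 9.96 to 39.6 ± 3.19 CPM, by 0.79 on the log2 scale (SE 0.11, edgeR adjusted p = 0.0125). Its adjusted p was 0.0737 without sgHDAC7 replicate 2 and 0.0878 without sgHDAC7 replicate 3. WARS1, the cytosolic tryptophanyl-tRNA synthetase, which interferon gamma induces and which also belongs to the transfer RNA synthetases, had 239, 248 and 253 CPM with sgHDAC7 and 329, 570 and 584 with sgNT. It fell by 1.00 on the log2 scale (SE 0.18, edgeR adjusted p = 0.0259), with replicate 1 of sgNT far below the other controls. The call was lost without any 1 of the sgHDAC7 libraries and without sgNT replicate 2 or 3 (adjusted p 7.06e-16 to 0.151 over the alternatives). IRF1 had a mean 105% of control, and whether it bears on the ICAM1 and WARS1 differences was not tested.

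**Figure D4:**
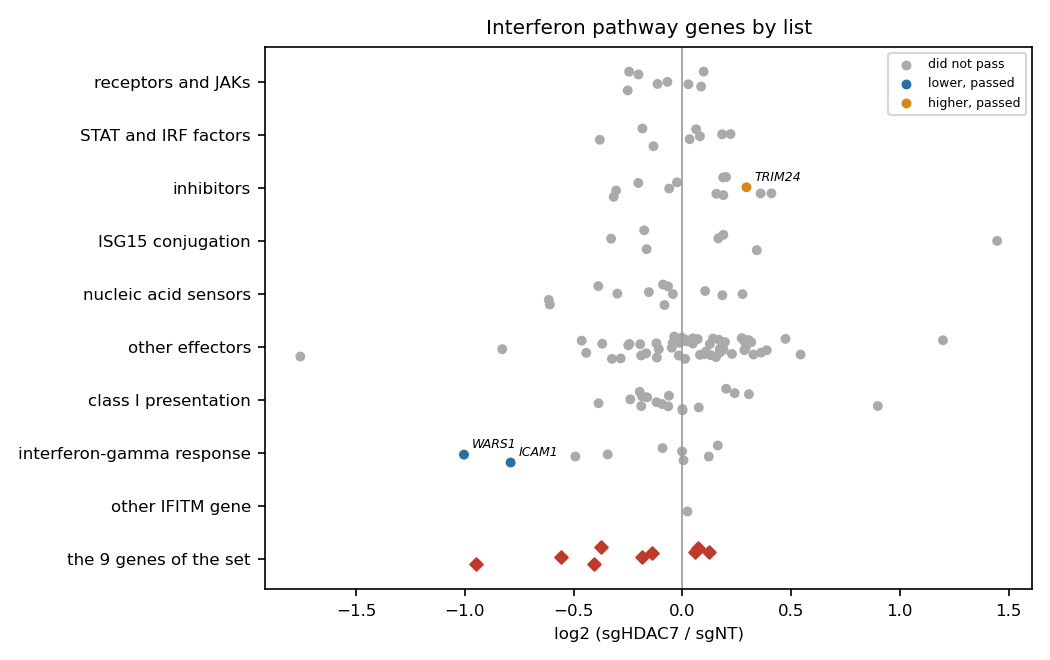
Log2 fold change of sgHDAC7 over sgNT (horizontal axis) for the 128 tested pathway genes outside the 9, one point per gene by list, with the 9 genes beside them. Called genes are coloured and named: TRIM24 to the right of 0 and WARS1 and ICAM1 to the left, with the list medians between -0.09 and 0.17.

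The promoter cores were also counted over all genes. Outside the members, 383 tested genes with a promoter sequence held an ISRE core, of which 3 were called higher and 10 lower (3.39% in all, median log2 difference -0.02). Of 9550 without one, 130 were higher and 173 lower (3.17%). For the GAS core the shares called were 3.81% of 839 genes with it (14 higher, 18 lower) and 3.12% of 9094 without (119 higher, 165 lower). The share called in either direction differed little with and without each core. More of the called genes were lower than higher throughout, and for the ISRE core this was 10 against 3. No test was made of the shares or of the split by direction.

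Across the 6 libraries, the members fell into those that followed IFITM1 and those that did not. Pearson's r with IFITM1 on log2(CPM + 0.5) was 0.93 for BST2, 0.90 for IFITM3 and 0.87 for IFITM2. It was 0.56 for STAT2, 0.18 for IRF9, -0.09 for ISG15, -0.28 for IRF1 and -0.65 for IFI6. Among 13832 other genes the closest to IFITM1 were CDH23, a cadherin, at 0.999, the CD24 pseudogene CD24P4 at 0.997, SLITRK6, a neuronal surface protein, at 0.997, the ribosomal pseudogene RPS13P2 at 0.996 and ADAM28, a surface metalloprotease, at 0.994. All 5 were called lower, CDH23 with 2.68 ± 0.39 CPM with sgHDAC7 and 5.95 ± 0.42 with sgNT. These values describe 6 points in 2 groups that share the guide difference, and the 2 pseudogenes may hold reads of their parent genes.

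Markers of other blood cells that could add interferon-induced transcripts were measured beside the members. Of 7 monocyte markers 2 were tested and CD14 and CSF1R were not analysed here. The summed monocyte level was 99.5 to 109.8 CPM with sgHDAC7 and 97.8 to 125.6 with sgNT, mostly from LYZ. Of 5 plasmacytoid dendritic markers 2 were tested, with a summed level of 62.0 to 70.1 against 77.2 to 92.3 CPM. TCF4, a factor active in many cell types, made up most of it and fell from 77.8 ± 6.64 to 56.5 ± 4.32 CPM (log2 -0.46 ± 0.09 SE, edgeR adjusted p = 0.0317). IL3RA, the other marker tested, went the opposite way, with 9.23 ± 0.31 CPM with sgHDAC7 and 7.01 ± 1.42 with sgNT. Its groups did not overlap either (log2 0.39 ± 0.18 SE, edgeR adjusted p = 0.277). The lymphoid sum was 31.8 to 34.2 against 35.1 to 42.1 CPM. By gene, however, the groups overlapped for each of the 3 tested of 7 lymphoid markers, CD79A, NKG7 and GNLY. Of these 0 were called by edgeR, where 2.86% of all genes were, and 0 had an unadjusted p under 0.05, where 19.2% did. The part of these levels in the IFITM and BST2 differences was not tested.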

How the data were processed

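The authors deposited 1 table of whole-number read counts per gene (its name says CPM, but 100% of values are whole and column totals differ). The submitters' processing notes name hg38 and edgeR 3.32.1 with no role for either. Aligner, counting tool, annotation and strand use: not given in the sources used here. Columns named NC were taken as sgNT, the one other group, and 0 further value columns were left unused.

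edgeR 4.0.16 (R 4.3.3) with TMM scaling, group as the single term and the quasi-likelihood test was run on the 13841 genes whose mean CPM reached 1 (2474 did not). It is two-sided, p-values were Benjamini-Hochberg adjusted over all genes tested, and the threshold was 0.05. P-values measure the spread between these libraries. The script was tested on simulated data. Alternatives were DESeq2 1.42.0, limma 3.58.1 on log2(CPM + pseudocount), other scalings and filters, libraries left out, a replicate block and, because an earlier account of these data had shown replicate 1 to stand apart, a replicate 1 term and replicates 2 and 3 alone. Gene positions and exon lengths are from GENCODE 29.

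The members and lists were chosen with earlier results of these data known. Genes named are the members, HDAC7, called pathway genes and neighbours with up to 3 further abundant genes per list, adjoining genes, the 5 genes most like IFITM1 and cell markers. IFNGR1, IFNGR2, ANKLE1 and HERC5, outside this rule, were added after their values were seen.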

Additional observations from a re-analysis of the deposited data

How the results depend on the processing

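Over 16 alternative settings each of the 9 members moved by less than the spread between replicates. The sign was kept in all 16 for each except ISG15 (14) and IRF1 (13). The log2 difference ranged from -0.99 to -0.87 for IFITM1, -0.65 to -0.40 for IFITM3, -0.49 to -0.29 for IFITM2 and -0.45 to -0.34 for BST2. Upper-quartile scaling and limma at a pseudocount of 0.5 each called 2 members, without IFITM3, and limma at a pseudocount of 2 called 3.

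Counts of calls moved far more. Over all genes, 161 were higher and 235 lower. DESeq2 gave 294 and 424, the replicate 1 term 800 and 943, and replicates 2 and 3 alone 1356 and 1505. Leaving out 1 library gave 14 to 734 and 13 to 861. For pathway genes (1 higher, 2 lower), the higher count was 0 with RLE scaling, with upper-quartile scaling, with limma at a pseudocount of 0.5 and with no filter, 11 with the replicate 1 term and 17 with replicates 2 and 3 alone, and 0 to 7 with 1 library left out. The lower count was 4 with DESeq2, 5 with the term, 14 with replicates 2 and 3 alone, and 0 to 8 with 1 library left out. For neighbours (0 called), DESeq2 called 2, a filter at 5 CPM 1, the term 6, replicates 2 and 3 alone 8, and leaving out 1 library 0 to 5, the highest without sgNT replicate 1. The cause of these moves was not tested. Counting error per library was 9.49% to 12.2% for ISG15, 8.77% to 10.5% for IFI6 and 8.11% to 11.3% for IRF1, whose spread between libraries was larger (16.2% and 24.0% of the mean).

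With the replicate number as a block, 430 genes were higher and 568 lower, and 3 pathway genes were higher and 3 neighbours called. Deviations of same-numbered libraries correlated at 0.30, 0.11 and 0.10, and not every library correlated best with its own number, so the numbers are not taken to pair the samples.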
